A study of Mus musculus with 12 samples.

Results

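The genes described here are the ligands, receptors and Smad proteins of TGF-β signalling: the ligands Tgfb1, Tgfb2 and Tgfb3, the receptors Tgfbr1, Tgfbr2 and Tgfbr3, and Smad2, Smad3, Smad4 and Smad7. They were chosen by symbol, and all 10 were found among the 54146 genes of the table. All 10 were among the 13002 genes tested, although Tgfb1 and Tgfbr3 would not have passed without the dormant KO libraries. A gene was tested if it had at least 1 TPM (a transcript's share of its library, scaled to the same total in each, with gene length divided out) in at least 3 libraries. The 12 libraries came from the mouse mammary carcinoma line D2A1, marked with an H2B-GFP fusion and stained with the membrane dye CellVue Claret. The cells were injected into the tail vein of female mice aged 6 to 8 weeks and sorted from the lungs after 12 to 14 days, in aliquots of 50 cells. Retention of the dye defined dormant cells, and its loss growing cells. KO hosts lacked Tgfbr2 in myeloid cells through Cre driven by the lysozyme M promoter, and WT hosts were, per the methods, mice with the floxed Tgfbr2 gene and no such deletion. Tgfbr2 was not edited in the tumour cells of either host. With 3 libraries for each state in each host, there were 4 groups, called dormant WT, growing WT, dormant KO and growing KO. The WT libraries are named as batch 1 and the KO libraries as batch 2, and the effects of batch and of host therefore cannot be told apart in these libraries, whereas each comparison of dormant with growing cells within 1 host lay within 1 batch.

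TGF-β ligands are secreted in a latent form, bound to a propeptide and to latent TGF-β binding proteins, and must be released before they can act. The active ligand binds TGFBR2, which recruits and phosphorylates TGFBR1. TGFBR3 (betaglycan) is a co-receptor that presents ligand, TGF-β2 above all, to the signalling receptors. The active receptor complex phosphorylates SMAD2 and SMAD3, which join SMAD4 and regulate transcription in the nucleus, and SMAD7 feeds back to inhibit the receptor. The pathway restrains the division of epithelial cells and is widely studied in tumour dormancy and metastasis to the lung.

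The labelled cell type was checked against marker lists before the members were compared. Krt8 and Krt18, keratins of simple epithelium, were present in every library, at 52.08 TPM or more, while Epcam and Cdh1, 2 epithelial adhesion genes, did not exceed 5.34 and 1.88 TPM. Of the 8 listed mammary epithelial and tumour line genes Spp1 was by far the most abundant, at 28979.98 to 39951.48 TPM in the dormant WT, growing WT and growing KO libraries and at 1235.89 to 1508.76 TPM in dormant KO. Of the 7 genes of that list that were tested, Spp1 and Krt8 were called lower between hosts in dormant libraries, and Krt19, Krt7 and Epcam higher, with Krt19 at 252.04 to 418.30 TPM in dormant KO against at most 0.59 TPM in dormant WT, so the list did not move in 1 direction. Lung epithelium and mesothelium also express Krt7 and Krt19. The dormant KO libraries stood apart in the markers of other cells as well. The summed level of 10 alveolar type 2 markers, led by Sftpc, was 40285 to 42593 TPM in dormant KO, 462 to 471 TPM in growing KO, 77.5 to 141 TPM in dormant WT and 53.7 to 97.3 TPM in growing WT. The 8 mesothelial markers summed to 11796 to 13574 TPM in dormant KO, 271 to 510 TPM in growing KO, 0.72 to 75.9 TPM in dormant WT and 22.6 to 36.7 TPM in growing WT. The 10 endothelial markers summed to 972 to 1024 TPM in dormant KO and to at most 148 TPM elsewhere, and the 10 fibroblast and pericyte markers to 1833 to 2066 TPM and at most 404 TPM. Of the fibroblast and pericyte sums Dcn alone made up 1093.75 to 1324.03 TPM in dormant KO. The 12 macrophage and monocyte markers summed to 525 to 626 TPM in dormant KO, 159 to 189 TPM in dormant WT, 10.8 to 16.8 TPM in growing WT and 24.2 to 45.4 TPM in growing KO, and the 8 neutrophil markers to 332 to 929 TPM in dormant WT and 62.5 to 88.4 TPM in growing WT, so that myeloid markers also differed between the states in WT hosts. All 8 mesothelial and all 10 endothelial markers were at 1 TPM or more in each dormant KO library. In these values the dormant KO libraries went against their label of tumour cells, and they are called dormant KO below only as the labels name them. In a bulk sample fewer cells of a type and less RNA per cell cannot be told apart. The part of these markers in the results that use the dormant KO libraries was not tested. The comparison of dormant with growing libraries in WT hosts and the comparison of hosts in growing libraries take no mean from those libraries, although the filter and the estimate of the spread were shared over all 12. With the dormant KO libraries left out of the fit, 1 and 0 members were called in these comparisons, as with them.

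**Figure D1:**
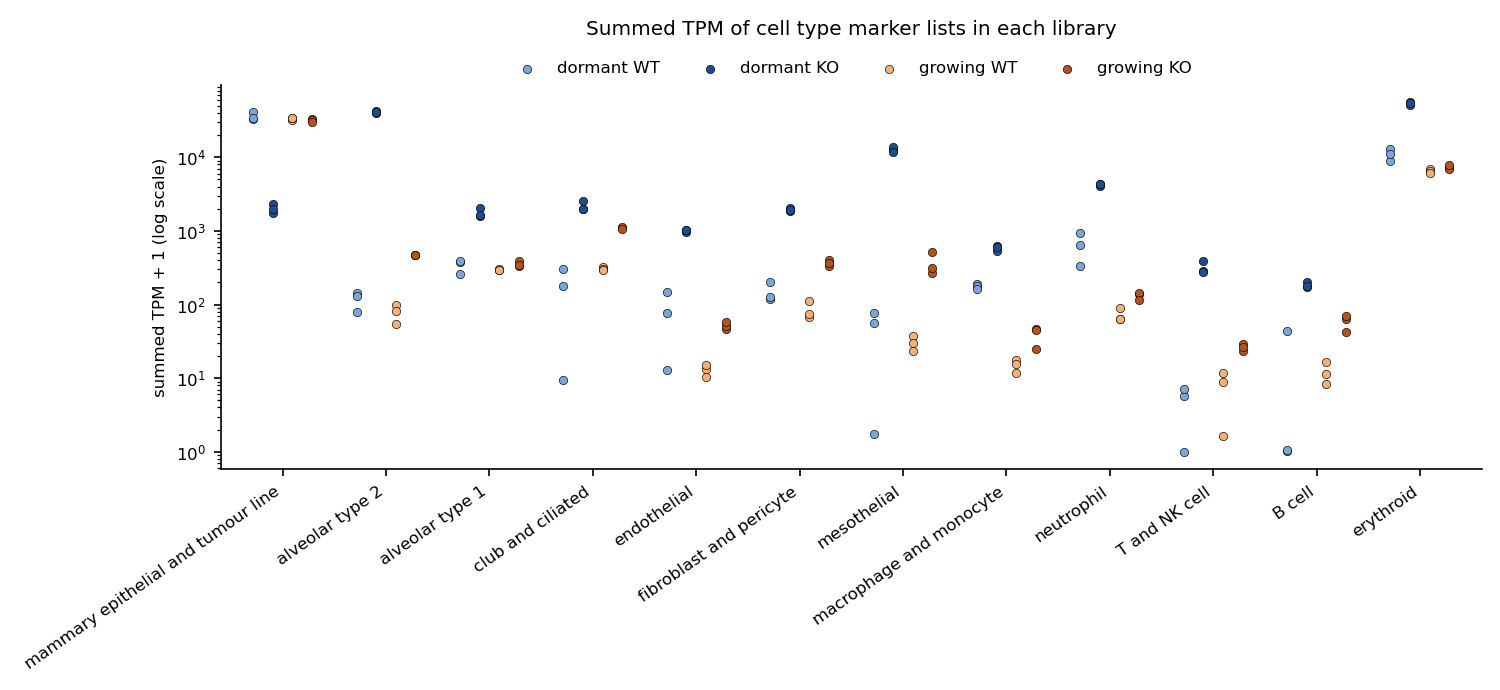
Summed TPM of each cell type marker list, plus 1, on a log axis, with 1 point per library coloured by group. The 3 dormant KO libraries (dark blue) lie apart from the other 9 in every list, below them for the mammary epithelial and tumour line list (1766 to 2345 TPM) and above them elsewhere.

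The number of genes above 0 was 11325 to 13242 in dormant WT, 14770 to 15315 in dormant KO, 14352 to 14475 in growing WT and 13406 to 14063 in growing KO. Of the members, 5 to 7 were above 0 in the dormant WT libraries and 9 or 10 in every other library. Depth is unknown in TPM, and a gene that was not captured from 50 cells cannot be told apart from one that was not expressed, so such genes are described as listed at 0.

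On build GRCm38, Tgfb1 (ENSMUSG00000002603.15) lies on chromosome 7 from 25687002 to 25705077, Tgfb2 (ENSMUSG00000039239.14) on chromosome 1 from 186622792 to 186705989, Tgfb3 (ENSMUSG00000021253.7) on chromosome 12 from 86056745 to 86079041, and Tgfbr1 (ENSMUSG00000007613.15) on chromosome 4 from 47353222 to 47414931. Tgfbr2 (ENSMUSG00000032440.13) and Smad3 (ENSMUSG00000032402.12) are both on chromosome 9, from 116084293 to 116175360 and from 63646767 to 63757994, and Tgfbr3 (ENSMUSG00000029287.14) is on chromosome 5 from 107106570 to 107289629. The table lists Smad2 as ENSMUSG00000024563.15, Smad4 as ENSMUSG00000024515.13 and Smad7 as ENSMUSG00000025880.11. Values are for whole genes, and no exon or isoform was resolved. Exons of 3 members, Tgfb2, Tgfb3 and Tgfbr3, overlap those of other genes, by at most 297 bases, and these other genes were at 0.14 TPM or less in every library.

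The promoters of Tgfb2 and Smad3 are shown because these were the only members that were called between dormant and growing cells and had an entry in the RefSeq promoter table (GRCm38.p6), and that of Tgfb1 because it is a ligand like Tgfb2. Each window holds the 250 bases before the gene start. Capitals mark matches, on either strand, to a TATA box (TATAAA), a GC box (GGGCGG), the Smad box (CAGAC) and an E-box (CACGTG). Entries were found for 5 members, the other two being Tgfbr1 and Tgfbr2. There was none for Tgfb3 or Tgfbr3.
Tgfb2: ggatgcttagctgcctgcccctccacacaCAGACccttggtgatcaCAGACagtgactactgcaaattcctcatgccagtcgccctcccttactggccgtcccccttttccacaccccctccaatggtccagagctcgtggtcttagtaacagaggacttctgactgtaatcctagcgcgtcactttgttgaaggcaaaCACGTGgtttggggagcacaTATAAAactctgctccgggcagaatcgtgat
Tgfb1: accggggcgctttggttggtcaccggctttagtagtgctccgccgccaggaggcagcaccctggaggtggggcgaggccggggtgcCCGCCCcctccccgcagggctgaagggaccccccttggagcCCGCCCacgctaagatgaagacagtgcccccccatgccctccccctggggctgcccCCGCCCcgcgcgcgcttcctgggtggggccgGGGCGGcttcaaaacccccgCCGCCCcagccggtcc
Smad3: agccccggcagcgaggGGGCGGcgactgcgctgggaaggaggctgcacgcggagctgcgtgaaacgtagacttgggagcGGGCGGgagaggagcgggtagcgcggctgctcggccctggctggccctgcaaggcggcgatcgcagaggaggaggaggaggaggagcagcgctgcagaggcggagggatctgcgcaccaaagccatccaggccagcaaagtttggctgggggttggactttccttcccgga
The Tgfb2 window (chr1:186705990-186706239, minus strand) held a TATA box that began at -31 from the gene start, an E-box at -51 and 2 Smad boxes at -221 and -204, and no GC box. The Tgfb1 window (chr7:25686752-25687001, plus strand) held 5 GC boxes and none of the other motifs, and the Smad3 window (chr9:63757995-63758244, minus strand) 2 GC boxes at -234 and -171. GC content was 53.6% for Tgfb2, 75.2% for Tgfb1 and 69.2% for Smad3, against a median of 52.4% over all windows. Among 32841 windows of the same length, 12.4% held the TATA box, 32.7% the GC box, 42.2% the Smad box and 6.02% the E-box. These matches describe the sequence and are not measured binding sites.

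Differences below are fitted with limma on log2(TPM + 1) over all genes tested, given with their standard error. Adjusted p is the Benjamini-Hochberg value over the 13002 genes, and a gene was called at an adjusted p up to 0.05 with a difference of 1 or more in either direction. This scale understates changes of genes at low TPM.

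Tgfb3 was the ligand with the highest level in 11 of the 12 libraries, the dormant KO library of replicate 1 being the exception. In the dormant WT libraries it stood at 32.25, 30.19 and 14.18 TPM, and in the growing WT libraries at 6.93, 6.96 and 5.45 TPM. These groups did not overlap, but the difference of 1.76 ± 0.64 was not called (adjusted p 0.118). In KO hosts the order of the means was turned, with 3.07, 12.64 and 6.89 TPM in dormant and 4.26, 15.80 and 17.09 TPM in growing libraries, and the groups overlapped. Dormant KO libraries lay below all dormant WT libraries, with a difference of -1.72 ± 0.64 that was not called (adjusted p 0.0754). It was called when dormant WT replicate 3 was left out (-2.08, adjusted p 0.0405) or dormant KO replicate 2 (-2.14, adjusted p 0.0498). The interaction of state and host, meaning how far the effect of state in KO hosts exceeded the one in WT hosts, was -2.38 ± 0.91 (adjusted p 0.132).

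Tgfb2 was the member whose response to state differed between the hosts. The dormant WT libraries held 0, 1.54 and 0 TPM, and the dormant KO libraries 7.21, 4.86 and 4.67 TPM. In growing WT it was at 6.44, 3.16 and 1.33 TPM, and in growing KO at 0.89, 0.16 and 1.28 TPM. The dormant groups did not overlap, and neither did the growing groups, in which the order of the hosts was the opposite. KO exceeded WT by 2.25 ± 0.58 in dormant libraries (adjusted p 0.0139) and was at -1.28 ± 0.58 in growing libraries, which was not called (unadjusted p 0.0468 from limma, adjusted p 0.651). In KO hosts dormant libraries exceeded growing ones by 1.92 ± 0.58 (adjusted p 0.0366), and in WT hosts the difference was -1.61 ± 0.58 (adjusted p 0.111). The interaction was 3.53 ± 0.81 and was called (adjusted p 0.0174). The call between dormant and growing libraries in KO hosts was lost when any 1 of their 6 libraries was left out (adjusted p 0.0571 to 0.140), with a replicate block (adjusted p 0.0591), with another pseudocount, with no filter and with quantile normalization (adjusted p 0.0978). Between states in WT hosts it was called without the dormant WT library of replicate 2 (-2.06, adjusted p 0.0440). The interaction was lost without the growing KO library of replicate 2 (adjusted p 0.0513), and with quantile normalization (adjusted p 0.150) or array weights (adjusted p 0.0732). The call between hosts in dormant libraries was kept without each of its 6 libraries in turn, and lost with a pseudocount of 5 (0.94), quantile normalization (adjusted p 0.172), only those groups in the fit (adjusted p 0.0667) or array weights (adjusted p 0.166). The Tgfb2 values of dormant KO stand beside the raised lung cell markers of those libraries.

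Tgfb1, the most widely expressed ligand of the family in most tissues, was low in these libraries. Its levels were 0, 0.02 and 0.03 TPM in dormant WT, 2.62, 0.02 and 3.67 TPM in dormant KO, 0.12, 0.52 and 0.46 TPM in growing WT and 0.08, 0.02 and 1.54 TPM in growing KO. Only 3 of 12 libraries reached 1 TPM, of which 2 were dormant KO and 1 growing KO. No difference was called with all 12 libraries. With dormant KO replicate 2 left out, the library at 0.02 TPM, Tgfb1 was higher in dormant KO by 2.02 than in dormant WT (adjusted p 0.00679) and by 1.54 than in growing KO (adjusted p 0.0305).

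The make-up of the ligand pool does not depend on the library total. Tgfb3 made up 95.1% to 100% of the summed TPM of the 3 ligands in dormant WT, 51.4% to 75.3% in growing WT, 23.8% to 72.1% in dormant KO and 81.5% to 98.9% in growing KO. The share of Tgfb2 was 1.62% ± 2.80 (SD, n = 3), 31.9% ± 14.8, 38.1% ± 15.5 and 8.15% ± 8.15 in the same order. The summed ligand level was 26.1 ± 10.3 TPM in dormant WT, 10.5 ± 3.13 TPM in growing WT, 15.2 ± 2.31 TPM in dormant KO and 13.7 ± 7.60 TPM in growing KO. Shares were not tested.

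**Figure D2:**
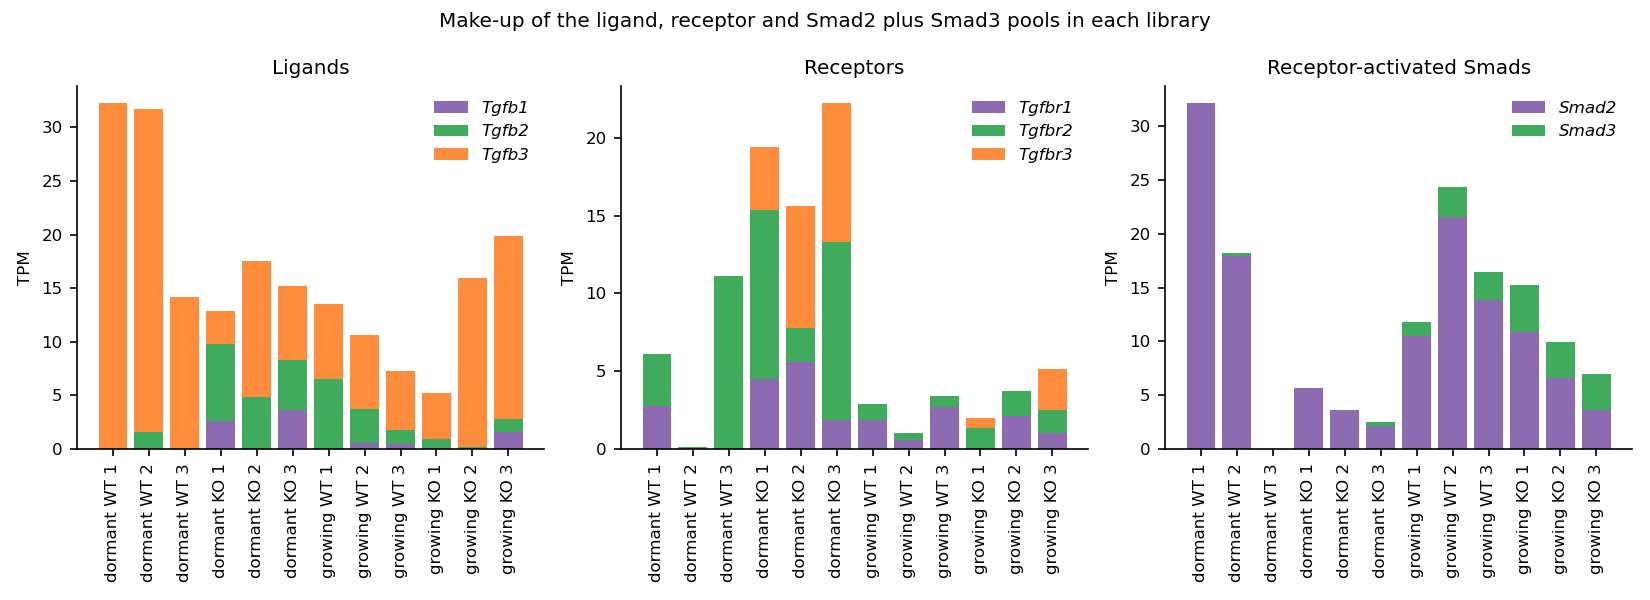
Stacked TPM of the 3 ligands (left), the 3 receptors (middle) and Smad2 with Smad3 (right) in each of the 12 libraries, on axes that start at 0. Tgfb3 is the largest part of the ligand bar in 11 of 12 libraries, Tgfbr3 appears only in KO hosts, and the dormant WT library of replicate 3 has no Smad2 or Smad3 bar.

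Of the receptors, Tgfbr3 was the only one called. It was listed at 0 in all 6 WT libraries, dormant and growing. In KO hosts it stood at 4.07, 7.83 and 8.91 TPM in dormant and at 0.66, 0 and 2.65 TPM in growing libraries. Dormant KO libraries were higher than dormant WT libraries (adjusted p 0.000888), for which no fold is given because WT was at 0. It reached 1 TPM in 4 libraries and passed the filter only through dormant KO, the group in which it was high, so the test adds little to the values. They were also higher than growing KO libraries, by 2.06 ± 0.48 (adjusted p 0.00972), a comparison within batch 2. That call was lost with a pseudocount of 5, where the difference was 0.97, and in a fit of only those groups (adjusted p 0.0512). In both comparisons the groups did not overlap. The interaction was 2.06 ± 0.67 and was not called (adjusted p 0.0793), although it was with median-ratio scaling (2.43, adjusted p 0.0286) and without the growing KO library of replicate 3 (2.57, adjusted p 0.0196).

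Tgfbr3 is also expressed by fibroblasts and endothelial cells, and the markers of those cells were raised in the same libraries. The 10 endothelial markers summed to 45.7 to 57.3 TPM in growing KO against 9.50 to 14.1 TPM in growing WT, and the fibroblast and pericyte markers to 332 to 404 TPM against 67.5 to 110 TPM. Of the latter sums Dcn alone made up 244.95 to 263.22 TPM in growing KO and 8.78 to 22.90 TPM in growing WT. Between these groups 2 of 9 tested fibroblast and pericyte markers and 0 of 10 endothelial markers were called, beside 0.977% of all genes. Their part in the values of Tgfbr3 was not tested.

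Tgfbr1, the signalling type I receptor, stood at 2.74, 0 and 0 TPM in dormant WT, 4.48, 5.61 and 1.84 TPM in dormant KO, 1.88, 0.56 and 2.68 TPM in growing WT and 0.06, 2.12 and 1.03 TPM in growing KO. The groups overlapped in all 4 pairwise comparisons and none was called. The largest of these differences was that between hosts in dormant libraries, 1.59 ± 0.66 (adjusted p 0.105), which was called with median-ratio scaling (1.91, adjusted p 0.0371) and with dormant WT replicate 1, the only one of its group above 0, left out (2.23, adjusted p 0.0180).

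Tgfbr2, the ligand-binding receptor that was deleted in the myeloid cells of the KO hosts, was detected in all 12 libraries. Its levels do not check the host label, since the deletion was in myeloid cells and the tumour cells kept the gene. The dormant KO libraries also hold lung cell transcripts, and the share of Tgfbr2 that came from other cells was not tested. The dormant KO libraries, at 10.90, 2.19 and 11.48 TPM, lay above the growing KO libraries, at 1.27, 1.58 and 1.47 TPM, but the difference of 1.68 ± 0.81 was not called (adjusted p 0.187) except with array weights (1.84, adjusted p 0.0249). In WT hosts the dormant libraries, at 3.38, 0.14 and 11.09 TPM, overlapped the growing ones, at 1.01, 0.44 and 0.72 TPM. The spread within the dormant groups, with SDs of 5.63 and 5.20 TPM, exceeded the mean difference between them.

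The summed receptor level was 19.1 ± 3.31 TPM (SD, n = 3) in dormant KO, 5.78 ± 5.48 TPM in dormant WT, 3.61 ± 1.58 TPM in growing KO and 2.43 ± 1.26 TPM in growing WT. In growing WT most of it was Tgfbr1 (56% to 78.8%), whereas in dormant KO it was divided among Tgfbr2 (40.6% ± 23.1), Tgfbr3 (37.0% ± 14.8) and Tgfbr1 (22.4% ± 13.8). These are descriptions, and the spread of the shares is wide.

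**Figure D3:**
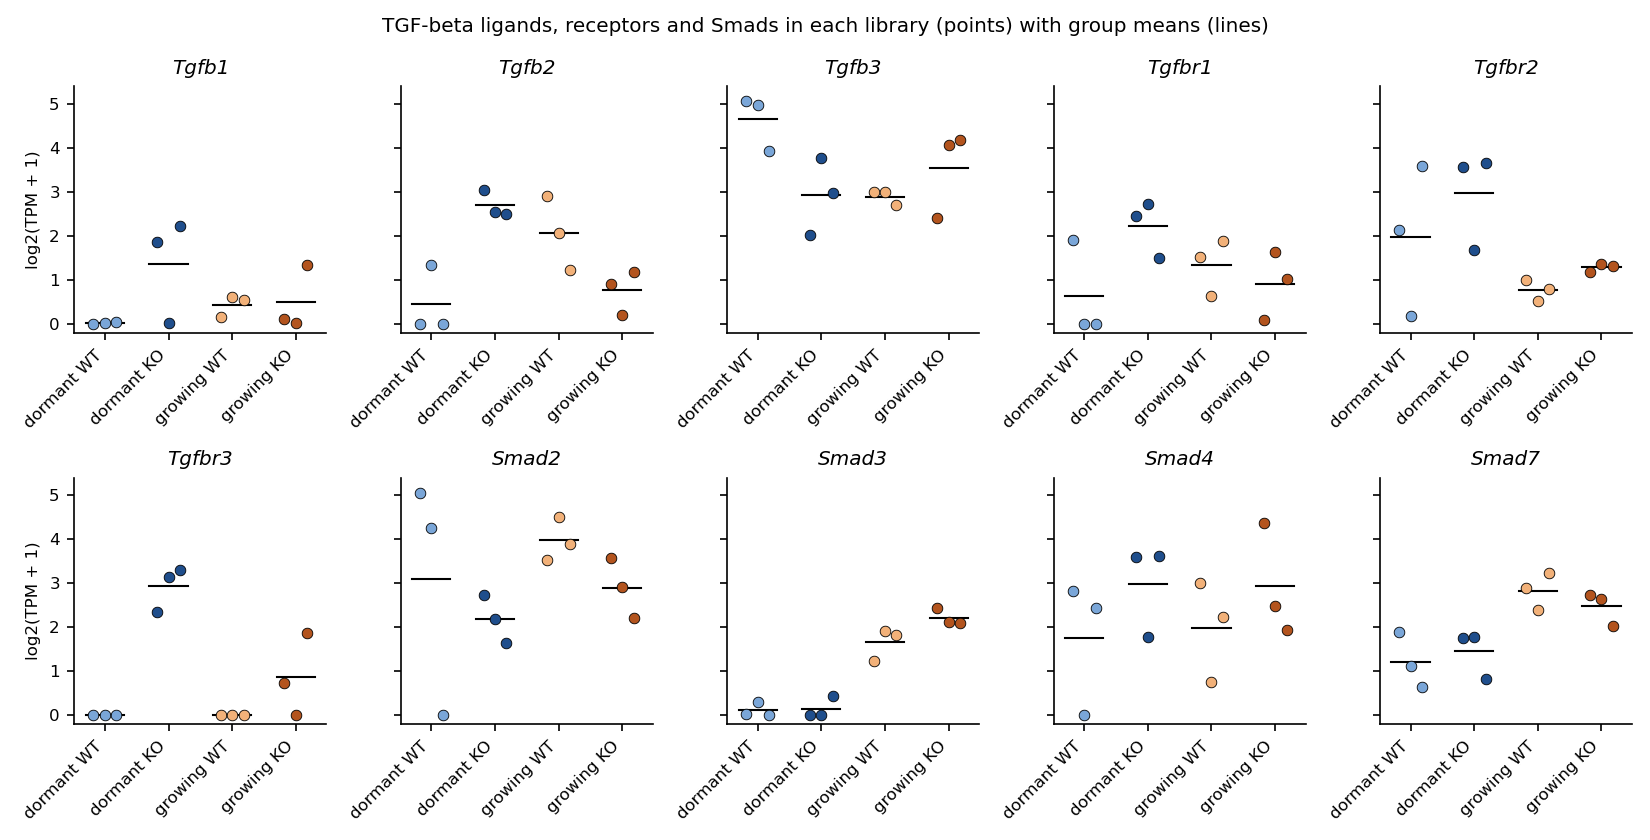
log2(TPM + 1) of the 10 members, with 1 point per library and a line at the mean of each group of 3. Smad3 is near 0 in all 6 dormant libraries and between 1.35 and 4.38 TPM in all 6 growing ones, Tgfbr3 is at 0 in every WT library, and Tgfb2 is lowest in dormant WT and highest in dormant KO.

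Smad3, which carries the receptor signal to the nucleus and binds DNA directly, was the member called between the dormant and the growing libraries of both hosts. The dormant WT libraries held 0.02, 0.24 and 0 TPM, and the growing WT libraries 1.35, 2.77 and 2.57 TPM. In KO hosts it was at 0.01, 0 and 0.36 TPM in dormant and at 4.38, 3.37 and 3.30 TPM in growing libraries. Every growing library exceeded every dormant one. Smad3 reached 1 TPM in all 3 growing libraries of each host and in no dormant library. It was therefore tested only through the state in which it was high, so the tests add little to the values. The difference was -1.55 ± 0.36 in WT hosts (adjusted p 0.0227) and -2.07 ± 0.36 in KO hosts (adjusted p 0.00181), each within 1 batch. The interaction was -0.52 ± 0.51 (adjusted p 0.629), and the hosts did not differ by a called amount in dormant (0.04 ± 0.36, adjusted p 0.964) or growing libraries (0.56 ± 0.36, adjusted p 0.971).

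With a minimum of 5 TPM Smad3 was not tested. Among the alternatives that tested it, the call in KO hosts was lost only with a pseudocount of 5, where the difference of -0.76 fell short of 1. That in WT hosts was lost with a pseudocount of 5, with no filter (adjusted p 0.0695), with quantile normalization (-0.16, adjusted p 0.860), with array weights (adjusted p 0.216) and without the growing WT library of replicate 2 (adjusted p 0.0862) or replicate 3 (adjusted p 0.0839). With the dormant KO libraries left out of the fit, an alternative chosen after seeing the data, it was kept (adjusted p 0.0326). Between the libraries behind the KO difference the lung cell markers moved as well, with 9 of 10 alveolar type 2 and 7 of 8 mesothelial markers higher in dormant KO than in growing KO, and their part in it was not tested. Between those of the WT difference 0 markers of these 2 lists were called, but 3 of 9 macrophage and monocyte markers were higher and 1 lower in dormant cells, 2 of 5 neutrophil markers were higher, 1 of 9 fibroblast and pericyte markers was higher and 1 lower, and 1 alveolar type 1 and 1 B cell marker were lower. Their part in the WT values of Smad3, and in those of Ltbp1, Fn1 and Tgfbi below, was not tested.

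Smad2, the close relative of Smad3, did not follow it. Its levels were 32.13, 17.97 and 0 TPM in dormant WT, 5.69, 3.59 and 2.12 TPM in dormant KO, 10.50, 21.57 and 13.89 TPM in growing WT and 10.83, 6.56 and 3.64 TPM in growing KO. The dormant WT library of replicate 3 was the only one of the 12 at 0, and leaving it out gave a called difference between hosts in dormant cells of -2.45 (adjusted p 0.0115), against -0.90 ± 1.08 with all libraries (adjusted p 0.602). Smad2 was the more abundant of the pair in 11 libraries, the other having neither. Smad3 made up 12.8% ± 2.44 of their sum in growing WT, 36.8% ± 9.69 in growing KO and 4.90% ± 8.33 in dormant KO (SD, n = 3), and 0.06% and 1.32% in the 2 dormant WT libraries that had either gene.

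Smad4, the common partner of the receptor-activated Smads, varied within each group as widely as between them. It stood at 6.11, 0 and 4.46 TPM in dormant WT, 11.02, 2.43 and 11.20 TPM in dormant KO, 6.98, 0.68 and 3.70 TPM in growing WT and 19.57, 4.58 and 2.83 TPM in growing KO. All groups overlapped and no difference was called under any alternative.

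Smad7, the inhibitory Smad and itself a target of the pathway, stood at 2.69, 1.18 and 0.56 TPM in dormant WT, 2.36, 2.43 and 0.78 TPM in dormant KO, 6.40, 4.23 and 8.36 TPM in growing WT and 5.63, 5.29 and 3.11 TPM in growing KO. As with Smad3, each dormant library lay below each growing library. The differences were -1.62 ± 0.54 in WT hosts (adjusted p 0.0893) and -1.02 ± 0.54 in KO hosts (adjusted p 0.227), and neither was called. The WT difference was called with dormant WT replicate 1 left out (-1.95, adjusted p 0.0324).

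**Figure D4:**
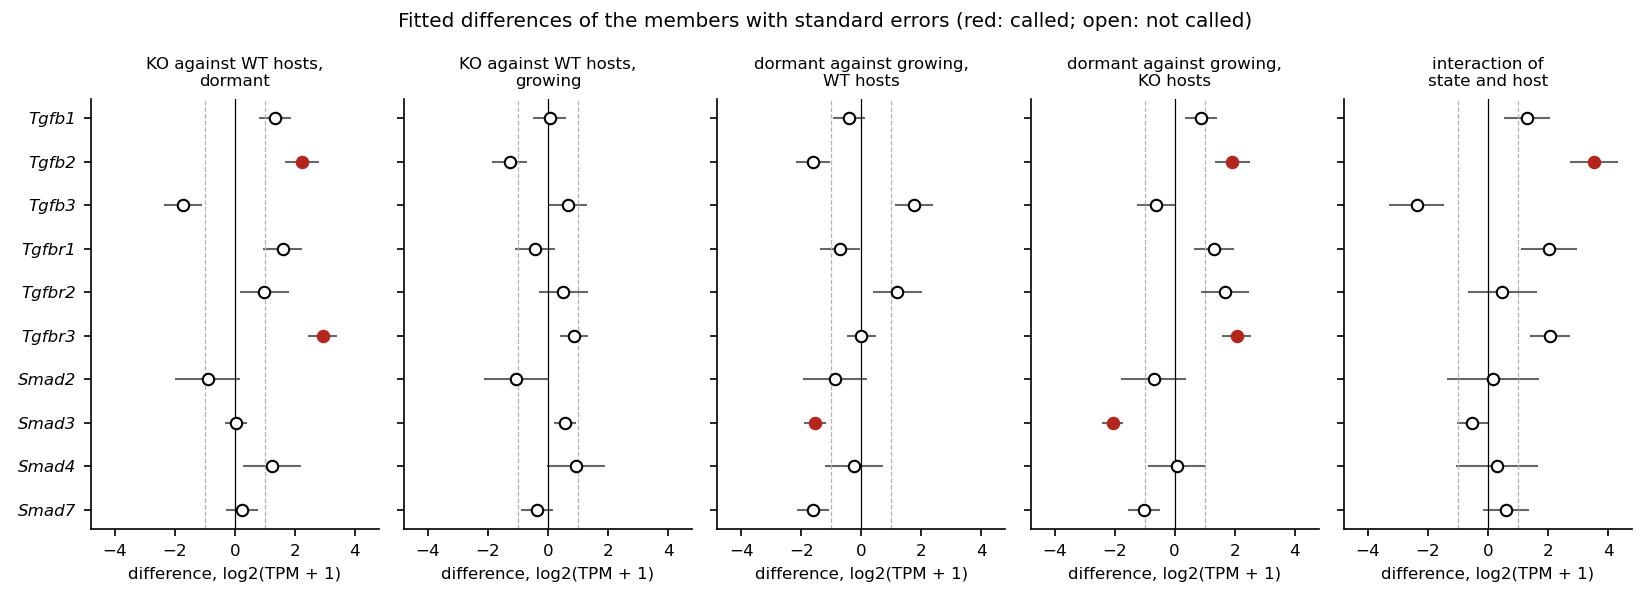
Fitted difference in log2(TPM + 1) of each member with its standard error, in 1 panel per comparison, with dashed lines at -1 and 1. Filled red points are called, and they are Tgfb2 and Tgfbr3 between hosts in dormant libraries, Smad3 between states in each host, Tgfb2 and Tgfbr3 between states in KO hosts and Tgfb2 in the interaction.

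Counted over the members, KO against WT hosts in dormant libraries gave 2 higher (Tgfb2 and Tgfbr3) and 0 lower of 10, where 22.3% of all genes tested were called. In growing libraries limma called 0 of 10, with 0.977% of all genes called. There 1 member, Tgfb2, was at an unadjusted p under 0.05, as were 979 of the 13002 genes tested. Dormant against growing in WT hosts gave 1 lower (Smad3), with 7.51% of all genes called, and in KO hosts 2 higher (Tgfb2 and Tgfbr3) and 1 lower (Smad3), with 17.8% of all genes called. The interaction gave 1 (Tgfb2), with 10.1% of all genes called. With 10 members a single call is worth 10% of them, so these counts are not set apart from the shares over all genes. The median difference of the members was 1.11 between hosts in dormant libraries, against 0.17 over all genes, 0.28 against 0.02 in growing libraries, -0.56 against -0.35 between states in WT hosts and 0.47 against -0.32 in KO hosts. Over the 8 members other than Tgfb1 and Tgfbr3, which were tested only because of the dormant KO libraries, these medians were 0.61, 0.08, -0.79 and -0.28, so that the sign in KO hosts depended on those members.

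The comparisons of states in the 2 hosts and of hosts in the 2 states share libraries pairwise, so the values of a member in them are not independent. Across the 12 libraries the pair of members with the highest Pearson r of log2(TPM + 1) was Smad3 and Smad7 (0.73) and the lowest was Tgfbr2 and Smad2 (-0.67), given as a description.

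For each member that was called, the 3 genes with the most similar pattern were those with the highest r over the 12 libraries. For Smad3 these were RP23-459L15.3 (0.989), RP23-341L7.1 (0.984) and Agt (0.974), the gene of angiotensinogen. For Tgfbr3 they were Ckmt1 (0.991), a mitochondrial creatine kinase, Prrg3 (0.980) and RP24-150D8.1 (0.980). For Tgfb2 they were Rps19 (0.877), a ribosomal protein gene, RP23-49H16.1 (0.871) and AC110508.1 (0.869). The points share groups and batches, and these genes were picked as the highest of 13002.

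The wider pathway was followed in 97 genes in 7 lists, of which 74 were tested. Between hosts in dormant libraries 17 were higher and 11 lower, or 37.8% of those tested beside the 22.3% of all genes, and the median was 0.53 against 0.17. In growing libraries 1 was higher and 0 lower, or 1.35% beside 0.977%. Between dormant and growing libraries 5 were higher and 3 lower in WT hosts, or 10.8% beside 7.51%, and 14 higher and 8 lower in KO hosts, or 29.7% beside 17.8%. In the interaction 11 were higher and 6 lower, or 23.0% beside 10.1%. Of the 74 genes 13 would not have passed the filter without the dormant KO libraries, among them Bmp4, Bmp6, Bambi, Smad6, Ctgf, Tagln and Itgb6. That they were tested depended on the group in which they were high, so these shares are no support for a change of the pathway.

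**Figure D5:**
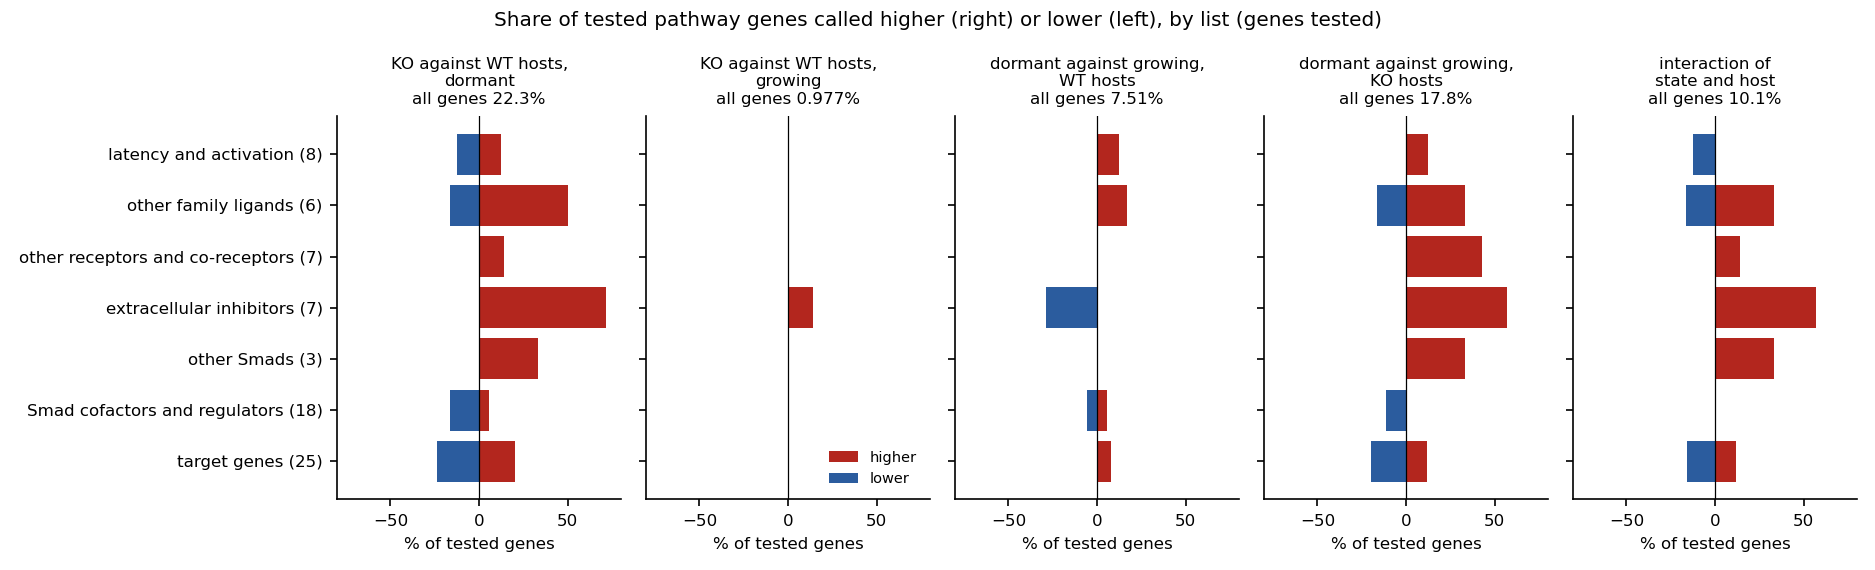
Percentage of the tested genes of each pathway list that were called higher (red, to the right) or lower (blue, to the left), in 1 panel per comparison, with the number tested in brackets and the share called among all genes above each panel. The bars are longest in the comparisons that use the dormant KO libraries, with 5 of 7 extracellular inhibitors higher between hosts in dormant libraries and 1 list gene, Dcn, called between hosts in growing libraries.

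Of 8 tested genes of latency and activation, Ltbp1, a latent TGF-β binding protein, stood at 66.55, 86.19 and 75.93 TPM in dormant WT and between 4.85 and 15.85 TPM in the other 9 libraries. It was higher in dormant than in growing cells in WT hosts by 3.25 ± 0.41 (adjusted p 0.000692), a comparison without the dormant KO libraries, and lower in dormant KO than in dormant WT (-2.41 ± 0.41, adjusted p 0.00114). Its calls in those 2 comparisons were kept under every alternative. Itgb6, a subunit of an integrin that releases latent TGF-β, held 7.97, 0.88 and 4.39 TPM in dormant KO and no more than 1.24 TPM elsewhere, and was higher there than in dormant WT (2.04 ± 0.53, adjusted p 0.0154) and than in growing KO (adjusted p 0.0137). The first of these calls was lost without the dormant KO library of replicate 1 (adjusted p 0.0505), with a pseudocount of 5 (0.81), with quantile normalization (adjusted p 0.212), with only those groups in the fit (adjusted p 0.106) and with array weights (adjusted p 0.151), and the second with a pseudocount of 5 (0.84). The other 6 were not called between hosts in dormant libraries.

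Among 6 tested ligands of other branches, Bmp4 and Bmp6, bone morphogenetic proteins that signal through other Smads, were listed at 0 in dormant WT and at 30.15 to 45.53 TPM and 13.46 to 21.28 TPM in dormant KO (adjusted p 8.05e-05 and 2.23e-05). Gdf11, an activin-type ligand that signals through SMAD2 and SMAD3, went the other way. Its levels were 12.04, 18.40 and 14.93 TPM in dormant WT, 0.01, 0.01 and 1.07 TPM in dormant KO and 3.10 to 3.74 TPM in all 6 growing libraries. It was higher in dormant than growing cells in WT hosts (1.88 ± 0.48, adjusted p 0.0345) and lower in KO hosts (-1.83 ± 0.48, adjusted p 0.0199), with an interaction of -3.71 ± 0.68 (adjusted p 0.00539). The call in WT hosts was lost without any 1 of the 3 growing WT libraries (adjusted p 0.0994 to 0.115), with a replicate block (adjusted p 0.0629), a pseudocount of 0.1 (adjusted p 0.181), only those groups in the fit (adjusted p 0.0883) or array weights (adjusted p 0.189). That in KO hosts was lost without dormant KO replicate 1 or 2 or growing KO replicate 2 or 3 (adjusted p 0.0612 to 0.0721), with a pseudocount of 5 (adjusted p 0.0882), median-ratio scaling (adjusted p 0.0537) or quantile normalization (adjusted p 0.0530), whereas the interaction was kept under every alternative.

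Of 7 other receptors and co-receptors, Bambi, a pseudoreceptor that blocks TGF-β and BMP receptors, was called between hosts in dormant libraries, at 5.32, 1.96 and 8.65 TPM in dormant KO and 0 in dormant WT (adjusted p 0.00109), a call lost with a pseudocount of 5 (0.99). Eng and Bmpr2, receptors that are also abundant in endothelium, were higher in dormant than growing cells of KO hosts, by 2.46 ± 0.60 (adjusted p 0.0133) and 2.94 ± 0.71 (adjusted p 0.0124). Leaving out growing KO replicate 3 ended both calls (adjusted p 0.0571 and 0.0505), and leaving out dormant KO replicate 1 that of Eng (adjusted p 0.0501).

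Of 7 tested extracellular inhibitors 5 were called higher between hosts in dormant libraries, with a fitted median of 2.88 against 0.17 over all genes. Dcn, the proteoglycan decorin, which binds TGF-β, reached 1097.94, 1324.03 and 1093.75 TPM in dormant KO, with 4.39, 0 and 0 TPM in dormant WT (adjusted p 1.39e-06). It was also at 244.95, 263.22 and 253.68 TPM in growing KO against 8.78, 22.90 and 10.24 TPM in growing WT (4.21 ± 0.60, adjusted p 0.00538), the only one of the 74 pathway genes called there, and the call was lost only with a pseudocount of 0.1 (adjusted p 0.185). Dcn was one of the fibroblast and pericyte markers too. Fstl1, a follistatin-like secreted protein, reached 55.77, 87.27 and 78.71 TPM in dormant KO, with 0, 0.11 and 0 TPM in dormant WT (adjusted p 4.28e-05). Between states in WT hosts Fstl3, which binds activins, was lower in dormant cells (-3.11 ± 0.75, adjusted p 0.0264), as was Dcn (-2.98 ± 0.60, adjusted p 0.0119). The call of Fstl3 was lost without any 1 of the 3 growing WT libraries (adjusted p 0.0731 to 0.104), with a pseudocount of 5 (adjusted p 0.0893), no filter (adjusted p 0.0586), quantile normalization (adjusted p 0.111) or array weights (adjusted p 0.177). That of Dcn was lost without growing WT replicate 2 (adjusted p 0.0569), with only those groups in the fit (adjusted p 0.148) or with array weights (adjusted p 0.0580).

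Smad6, the inhibitory Smad of the BMP branch, held 8.04, 7.32 and 7.48 TPM in the dormant KO libraries and 0 in the other 9. It entered the test only through dormant KO, and its calls between hosts in dormant libraries (adjusted p 1.62e-05), between states in KO hosts (adjusted p 2.64e-05) and in the interaction (adjusted p 0.000735) rest on those 3 libraries. It was the only one of 3 other Smads tested that was called in any comparison.

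Of 18 Smad cofactors and regulators 1 was higher and 3 lower in dormant KO than in dormant WT, or 22.2%, which is the share over all genes (22.3%). Smurf2, a ubiquitin ligase for Smads and the type I receptor, was at 8.24 to 9.74 TPM in dormant KO and 0.58 to 1.83 TPM in dormant WT (2.13 ± 0.49, adjusted p 0.00795), a call lost with quantile normalization (adjusted p 0.105), only those groups in the fit (adjusted p 0.0779) or array weights (adjusted p 0.114). Tgif1, a Smad corepressor, was at 23.48 to 40.71 TPM and 63.55 to 276.50 TPM (-2.27 ± 0.51, adjusted p 0.00656, and 0.0645 with only those groups in the fit), and the coactivator Crebbp at 2.48 to 3.23 TPM and 14.86 to 20.21 TPM (-2.20 ± 0.44, adjusted p 0.00333). Tgif2, the relative of Tgif1, was like Smad3 lower in dormant than growing cells in each host. It was listed at 0 in dormant WT against 2.45 to 9.05 TPM in growing WT (adjusted p 0.0165), and at 0.08, 1.24 and 0 TPM in dormant KO against 3.93, 7.66 and 3.90 TPM in growing KO (-2.14 ± 0.53, adjusted p 0.0137). Tgif2 reached 1 TPM in all 3 growing libraries of each host and in 1 dormant library. It too was tested through the state in which it was high. The call in WT hosts was lost without growing WT replicate 2 (adjusted p 0.0654), with array weights (adjusted p 0.209), no filter (adjusted p 0.0508) or a pseudocount of 5 (-0.94). That in KO hosts was lost without dormant KO replicate 1 or 3 or growing KO replicate 2 (adjusted p 0.0530 to 0.0562) or with a pseudocount of 5 (-0.89).

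Of 25 target genes, all tested, 5 were higher and 6 lower between hosts in dormant libraries, or 44% beside 22.3% of all genes. Of those higher, Tagln, Ctgf and Snai2 were tested only because of the dormant KO libraries. Between hosts in growing libraries limma called 0, beside 0.977%, with 3 at an unadjusted p under 0.05, as were 979 of the 13002 genes tested. Between states 2 were higher in WT hosts, or 8% beside 7.51%, and 3 were higher and 5 lower in KO hosts, or 32% beside 17.8%. Fn1 (fibronectin) reached 296.55, 367.55 and 304.14 TPM in dormant WT, 22.05, 24.45 and 22.66 TPM in dormant KO and 45.62 to 78.44 TPM in growing libraries. It was higher in dormant than growing cells in WT hosts by 2.16 ± 0.26 (adjusted p 0.000562) and lower in dormant KO than dormant WT (-3.75 ± 0.26, adjusted p 2.33e-06). Tgfbi, a secreted matrix protein induced by TGF-β, held 13.47, 5.18 and 30.28 TPM in dormant WT libraries against 0, 0 and 0.38 TPM in growing ones (3.66 ± 0.72, adjusted p 0.0104, and 0.0506 with only those groups in the fit).

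Tagln and Acta2, the smooth muscle genes transgelin and alpha actin, were listed at 0 in dormant WT and at 35.49 to 42.88 TPM and 13.84 to 81.34 TPM in dormant KO (adjusted p 3.67e-05 and 0.000211). Bhlhe40 was lower there (-3.49 ± 0.42, adjusted p 0.000123). Between states in KO hosts Ctgf was higher in dormant cells (3.72 ± 0.62, adjusted p 0.00143) and Cyr61, a matricellular gene of the same family, lower, at 102.35, 171.47 and 128.69 TPM against 1558.27, 1973.89 and 1714.58 TPM (-3.72 ± 0.20, adjusted p 7.62e-07). The targets thus moved in opposite directions between the same libraries, among which the lung cell markers moved too.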

How the data were processed

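RNA was measured in 12 libraries, 3 in each of 4 groups taken from the labels. The deposited values are TPM. The authors sorted 50 cells per aliquot and, by their methods, made libraries by a Smart-seq protocol (the labels give a TruSeq kit for mRNA). The submitters' processing notes name bcl2fastq 2.20, cutadapt 1.18, STAR 2.5.2b, RSEM 1.3.3 and the build mm10. Each column sums to 999999 to 1000001, so depth is unknown, and precision rests on the spread between 3 libraries, which the figure legends of the study describe as 3 mice per group. RSEM shares reads of similar sequences by an estimate, and the use of strand is not stated. A further 30 per-sample columns that match no labelled sample were not used; some of them are named as WT libraries of batch 2, so the comparison of hosts within that batch was not analysed here.

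log2(TPM + 1) of genes with at least 1 TPM in at least 3 libraries (13002 of the 25916 above 0) was fitted with limma 3.58.1 (R 4.3.3, eBayes with a trend, 8 residual degrees of freedom) over all 12 libraries, with 5 contrasts, two-sided, adjusted by Benjamini-Hochberg. TPM are not counts, so no count model was used. A gene was called at an adjusted p of at most 0.05 and a difference of at least 1. The members, the 7 pathway lists and the 12 marker lists were chosen with earlier results of these data known. All 10 members are named, with up to 2 higher and 2 lower called genes per pathway list and contrast, of which those the text describes are given with values, and the 3 genes most correlated with each called member. Marker genes were named only to check the labels. On simulated data for the dormant host comparison, in 13002 genes, 25% of 100 genes changed by 2 log2 units and 59% of 100 changed by 4 were called, with 3 unchanged genes called. The simulation changed 200 genes, far fewer than the 2898 called in the data, and the adjustment depends on that number. These shares therefore do not give the power of the real comparison. Positions are from GENCODE M21 on GRCm38, which is the build mm10, and promoters from RefSeq. The alternatives were other pseudocounts, filters, scalings, weights, thresholds and fits, a replicate block, and leaving out each library. The alternatives for single pathway genes and the fit without the dormant KO libraries were added after seeing the data.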

Additional observations from a re-analysis of the deposited data

Results flagged for a closer look

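The response of Tgfb2 to state differed between the hosts by the test of the difference itself. The interaction was 3.53 on the log2(TPM + 1) scale (limma adjusted p 0.0174), with all 3 dormant KO libraries above all 3 growing KO libraries and 2 of 3 dormant WT libraries below all growing WT libraries. It was no longer called without the growing KO library of replicate 2 (adjusted p 0.0513), with quantile normalization (adjusted p 0.150) or with array weights (adjusted p 0.0732). It is made of 1.92 in KO hosts, where it uses the dormant KO libraries, and -1.61 in WT hosts. In the dormant KO libraries the 10 alveolar type 2 markers summed to 40285 TPM or more, and their part in the difference was not tested. Host and library batch are the same split and cannot be told apart.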

How the results depend on the processing

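Of 845 refitted member differences 806 stayed on their side of the threshold, 27 calls were lost and 12 were gained, and none of the called differences changed sign. Members called between hosts in dormant libraries, 2 with all settings as described, were 1 with a pseudocount of 5, quantile normalization, only the groups compared or array weights, and 0 with a minimum of 5 TPM, at which 5 members remained tested. Leaving out each library gave 2 to 4. All genes called there, 2898, became 1680 with only the groups compared and 1418 with array weights. Between hosts in growing libraries 127 genes became 308 and 516 under those 2 settings and 73 to 89 without each library in turn. Between states in WT hosts the 1 member called became 0 with a pseudocount of 5, no filter, a minimum of 5 TPM, quantile normalization and array weights, and 0 to 2 without each library, and the 977 genes became 637 with no filter, 310 with array weights and 452 to 1930 without each library. Between states in KO hosts the 3 members became 0 with a pseudocount of 5 or a minimum of 5 TPM, and 2313 genes became 3586 with array weights. In the interaction the 1 member became 0 with a minimum of 5 TPM, quantile normalization or array weights, 2 with median-ratio scaling and 0 to 2 without each library, and 1312 genes became 870 to 1950 without each library. Apart from the pseudocount, which changes the size of differences of low genes, and the minimum, which removes genes, the cause was not tested. Median-ratio scaling moved the share of higher genes among those called from 57.9% to 74.0% between hosts in dormant libraries, from 46.7% to 69.2% between states in KO hosts and from 61.2% to 79.1% in the interaction, with medians over all genes of 0.50, 0.09 and 0.49 in place of 0.17, -0.32 and 0.16. Quantile normalization moved it from 24.6% to 50.6% between states in WT hosts and from 46.7% to 56.9% in KO hosts.

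Whether same-numbered libraries came from the same mouse was not settled, and the main fit does not pair them. The deviations of 18 same-numbered pairs, which include pairs across hosts, correlated at -0.01 to 0.02. Same-numbered dormant and growing libraries were at 0.021, 0.019 and 0.011 in KO hosts and at -0.010, -0.012 and 0.014 in WT hosts. Differently numbered ones in KO hosts were at -0.018 to -0.0005. So weak a check cannot show that the libraries were unpaired. With a replicate block Tgfb2 between states in KO hosts was lost (adjusted p 0.0591), the count of members there was 2, all other member calls were kept, the pathway genes Gdf11 and Crebbp between states in WT hosts were lost (adjusted p 0.0629 and 0.0620), and 86 genes were called between hosts in growing libraries.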
